A study of Homo sapiens with 20 samples.

Results

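The transcripts of 8 NADPH oxidase genes, DUOX1, DUOX2, DUOXA1, NOX1, NOX4, NOX5, NOXA1 and CYBA, were followed in NTERT cells, a line of human keratinocytes immortalized with telomerase. The genes were chosen by name as subunits and partners of the NADPH oxidases, with earlier results of these data known. All 8 were found by their Ensembl identifiers among the 57500 genes counted in each library. RNA was sequenced from 20 libraries in 4 groups of 5, formed by 2 genotypes (WT and GCN2KO), each left unwounded or subjected to HDW. HDW is high-density wounding, in which a confluent monolayer is scratched in a grid of spaced lines to raise the number of cells near a wound. The share of cells at a wound edge is not given in the sources used here. The WT cells are wild type for GCN2, and a figure legend of the study describes WT as cells given a control guide RNA. That is not restated for the RNA-seq libraries. The GCN2KO cells are a CRISPR/Cas9-edited pool rather than 1 clone, with the edit in EIF2AK4, the gene of the eIF2α kinase GCN2. By the methods of the study both genotypes were kept in low-calcium medium, moved to serum and raised calcium to differentiate, and then wounded or left alone, with RNA taken 6 h after wounding. It is not stated which of the 2 guide sites, in different exons, was used for the RNA-seq pool. The study counts its replicates as biological ones, but the sources used here do not say whether the 5 of a group came from separate passages or days, so each p-value below measures the spread between these libraries.

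NADPH oxidases are membrane enzymes that pass electrons from NADPH to oxygen and are known as deliberate sources of reactive oxygen species. DUOX1 and DUOX2 are the dual oxidases of epithelia, which are activated by calcium, release hydrogen peroxide and need a maturation factor (DUOXA1 or DUOXA2) to reach the cell surface. NOX1 works with the membrane partner p22phox (CYBA), an organizer, the activator NOXA1 and the GTPase RAC1, NOX4 needs p22phox alone, and NOX5 is calcium-gated and needs no partner. The question behind the comparisons is which oxidases these keratinocytes transcribe, and whether GCN2 loss or wounding changes them, since oxidant production at the leading edge is a part of keratinocyte migration.

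Of the 8 genes, 4 lie on chromosome 15, and DUOX1, DUOXA1 and DUOX2 lie side by side there. DUOX1 (ENSG00000137857, chr15:45129933-45165576, plus strand) runs away from its maturation factor gene DUOXA1 (ENSG00000140254, chr15:45117366-45129938, minus strand), and DUOX2 (ENSG00000140279, chr15:45092650-45114172, minus strand) runs away from DUOXA2 (ENSG00000140274, chr15:45114326-45118421, plus strand), with positions on GRCh38 from GENCODE 44. Each oxidase thus shares a divergent promoter with its own maturation factor. The stretches between the RefSeq starts of each pair (GRCh38.p14, plus strand) are shown because the results turn on these pairs, with GC boxes (GGGCGG, here read on the other strand as CCGCCC) in capitals in the first stretch and the TATA box (TATAAA) in capitals in the second.
DUOX1/DUOXA1 (chr15:45129880-45129993): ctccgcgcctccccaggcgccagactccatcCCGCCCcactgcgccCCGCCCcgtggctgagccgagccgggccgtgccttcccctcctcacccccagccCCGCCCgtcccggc
DUOXA2/DUOX2 (chr15:45114173-45114325): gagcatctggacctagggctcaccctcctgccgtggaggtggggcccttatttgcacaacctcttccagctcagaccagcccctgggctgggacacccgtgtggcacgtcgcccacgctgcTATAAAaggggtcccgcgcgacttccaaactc

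The DUOX1/DUOXA1 stretch of 114 bases was 80.7% GC, held 13 CpG and 3 GC boxes, and had no TATA box. The DUOXA2/DUOX2 stretch of 153 bases was 63.4% GC, held 8 CpG and 1 TATA box, and had no GC box. Some GENCODE transcripts of DUOX1 and DUOXA1 begin inside the first stretch and overlap each other there. RefSeq promoter windows were found for all 8 genes. Of 35116 such windows of equal length over all genes, 44.95% held a GC box on either strand and 11.5% a TATA box. Neither TGANTCA, the AP-1 site, nor TGATGNAA, the composite site bound by C/EBP and ATF proteins, was found in the windows of DUOX1, DUOX2 or DUOXA1, against 7.71% and 3.62% of all windows. A match or its absence describes these letters only.

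Libraries held 14083504 to 34611570 counts (median 32243580.5), with the shallowest among the WT unwounded cells. EIF2AK4 was lower in every GCN2KO library than in any WT library, at 894 ± 61.8 normalised read counts (SD, n = 5) unwounded against 4355 ± 149 in WT, and 874 ± 66.5 after HDW against 4194 ± 129. Normalised read counts are counts scaled to the mean effective library size. Basal keratinocyte markers (KRT5, KRT14, KRT15, TP63, ITGA6 and DSG3) summed to 15698 to 22631 CPM over all libraries, while PTPRC of leukocytes had at most 2 counts in a library. Of 5 leukocyte and 5 fibroblast markers, 2 each were at or under 3 counts in every unwounded WT library. CD14 of the leukocyte list and COL1A1 of the fibroblast list were read, with medians of 57.2 and 31.4 CPM in unwounded WT cells. The 6 differentiating-keratinocyte markers (KRT1, KRT10, IVL, TGM1, DSG1 and FLG) summed to 240 to 327 CPM in the WT libraries and 455 to 779 CPM in the GCN2KO libraries, mostly through IVL, which encodes the cornified envelope protein involucrin (log2 fold change 1.83 unwounded and 1.96 after HDW). Of the 5 genes of that list tested, IVL was higher and KRT1 (−1.06) and FLG (−0.93) were lower in unwounded GCN2KO cells, and IVL and KRT10 (0.28) were higher and KRT1 (−0.83) and TGM1 (−0.32) lower after HDW. Of the 6 basal markers, 4 were lower in GCN2KO cells in both states, KRT15 by the most (−1.88 and −1.13), KRT5 was higher (0.50 and 0.52), and DSG3 did not pass the test. The part of these differences in the results below was not tested, and in bulk RNA fewer cells that express a gene and less RNA per cell cannot be told apart.

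Reads of the family fell mainly on DUOX1 and DUOXA1, with fewer on DUOX2 and NOXA1. A gene was called expressed where its median was at least 1 CPM in at least 1 group, which held for 4 of the 8, DUOX1, DUOXA1, DUOX2 and NOXA1. NOX1, NOX5 and CYBA were read above 3 counts in at least 1 library but stayed below 1 CPM, with highest group medians of 0.380, 0.436 and 0.107 CPM. NOX4 was at or under the floor, with 3 counts in all 20 libraries together and 0 in 17 of them. A count of 0 allows up to 3 counts, or 0.0867 CPM in the deepest and 0.213 CPM in the shallowest library.

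Levels of different genes are compared per exonic length, as FPKM. DUOX1 stood highest at 8.97 ± 0.250 FPKM in unwounded WT cells (SD, n = 5), followed by DUOXA1 at 3.26 ± 0.436, NOXA1 at 1.14 ± 0.161 and DUOX2 at 0.554 ± 0.0645 FPKM. None of these 4 ranges overlapped in unwounded WT cells, since the lowest DUOX1 library (8.73 FPKM) was above the highest DUOXA1 library (3.73), the lowest DUOXA1 library (2.74) above the highest NOXA1 library (1.41), and the lowest NOXA1 library (0.999) above the highest DUOX2 library (0.651). NOX1 followed at 0.130 ± 0.0461 FPKM, and NOX5 at 0.0399 ± 0.0185, and these 2 overlapped (NOX1 from 0.0544, NOX5 up to 0.0660 FPKM). The order of these 2 in unwounded WT cells rests on their exonic lengths, 2543 bases for NOX1 and 12233 for NOX5. In normalised read counts NOX5 was the higher there (14.03 ± 6.51 against 9.53 ± 3.37), but not in the other groups. The order of the first 4 means was the same in all 4 groups, but NOXA1 and DUOX2 overlapped in unwounded GCN2KO cells, where NOXA1 was at 0.273 to 0.788 FPKM and DUOX2 at 0.133 to 0.291. Of the catalytic subunits (DUOX1, DUOX2, NOX1, NOX4, NOX5, CYBB and NOX3), DUOX1 made up 91.8 to 92.8% of the summed FPKM in unwounded WT libraries and 86.7 to 91.3% in unwounded GCN2KO libraries. Their sum was 9.72 ± 0.300 FPKM in unwounded WT and 3.82 ± 0.686 in unwounded GCN2KO cells, and 9.72 ± 1.07 against 4.22 ± 0.709 after HDW.

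**Figure D1:**
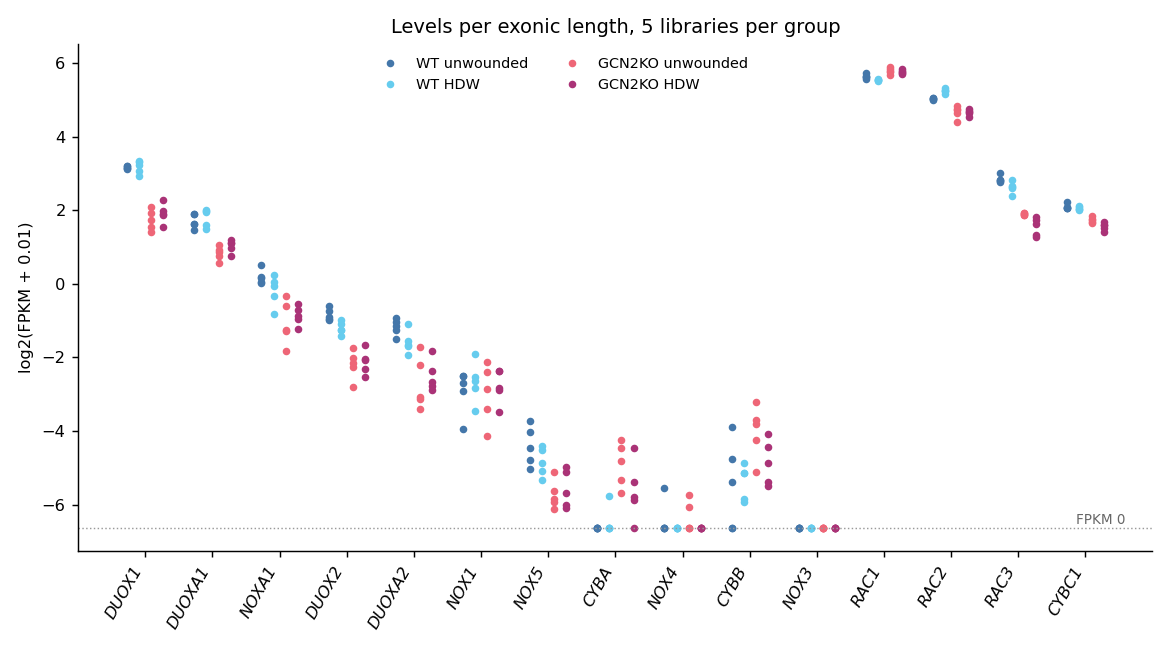
Level of each oxidase gene and its partners in every library as log2(FPKM + 0.01), with 1 point per library and colours for the 4 groups; the dotted line marks an FPKM of 0. DUOX1 is the highest catalytic subunit in all groups (8.97 FPKM in unwounded WT and 3.40 in unwounded GCN2KO cells on average), whereas CYBA, NOX4 and NOX3 lie at or near 0.

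DUOX1, the catalytic subunit that carried most of the oxidase transcripts, was lower without GCN2. Unwounded WT libraries held 2337, 2204, 2331, 2222 and 2235 normalised read counts, and unwounded GCN2KO libraries 1082, 963, 667, 844 and 737. After HDW the WT libraries held 2564, 1938, 2125, 2506 and 2358 and the GCN2KO libraries 739.8, 917, 946, 998 and 1214. The genotypes did not overlap in either state, and the unwounded WT libraries lay closest together. On the log2 scale GCN2KO differed from WT by −1.40 (SE 0.11, 95% interval −1.63 to −1.17, edgeR quasi-likelihood test, Benjamini-Hochberg adjusted p = 9.86e-09) unwounded and −1.26 (SE 0.11, −1.49 to −1.02, adjusted p = 1.70e-07) after HDW, or 0.379 and 0.418 of the WT level. DUOXA1 and an unnamed gene together overlap 6.38% of its exonic bases, where reads may not be told apart, and 4.95% of its 50-base words also occur in DUOX2.

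DUOXA1, the maturation factor that brings DUOX1 to the surface, fell as well but by less. It was at 399, 328, 395, 293 and 328 normalised read counts in unwounded WT libraries and at 222, 179, 196, 200.04 and 159 in unwounded GCN2KO libraries. After HDW it was at 412, 302, 321, 431 and 419 in WT and 178, 230.1, 228, 246 and 208 in GCN2KO libraries. Again no GCN2KO library reached a WT library in the same state. The log2 fold changes were −0.86 (SE 0.11, adjusted p = 4.81e-06) and −0.80 (SE 0.11, adjusted p = 2.24e-05), with the edgeR test as above. DUOXA1 shares 19.1% of its exonic bases with DUOX1 or DUOXA2.

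The balance between DUOX1 and its maturation factor therefore shifted with genotype. The ratio of DUOX1 to DUOXA1, both in FPKM and so free of library scaling, was 2.79 ± 0.307 (SD, n = 5) in unwounded WT and 1.91 ± 0.314 in unwounded GCN2KO cells, with all 5 GCN2KO libraries below all WT libraries. On the log2 scale the difference was −0.56 (two-sided exact permutation test, p = 0.00794, the smallest p that 5 against 5 libraries can give). After HDW the ratio was 2.60 ± 0.177 in WT and 1.88 ± 0.335 in GCN2KO cells, a log2 difference of −0.48 (exact permutation p = 0.0238), with 4 of 5 GCN2KO libraries below all WT libraries. For the ratio of DUOX1 to DUOX2 the genotype difference was −0.02 unwounded (exact permutation p = 0.921) and −0.32 after HDW (p = 0.0952). These 4 ratio tests were added after the values had been seen.

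**Figure D2:**
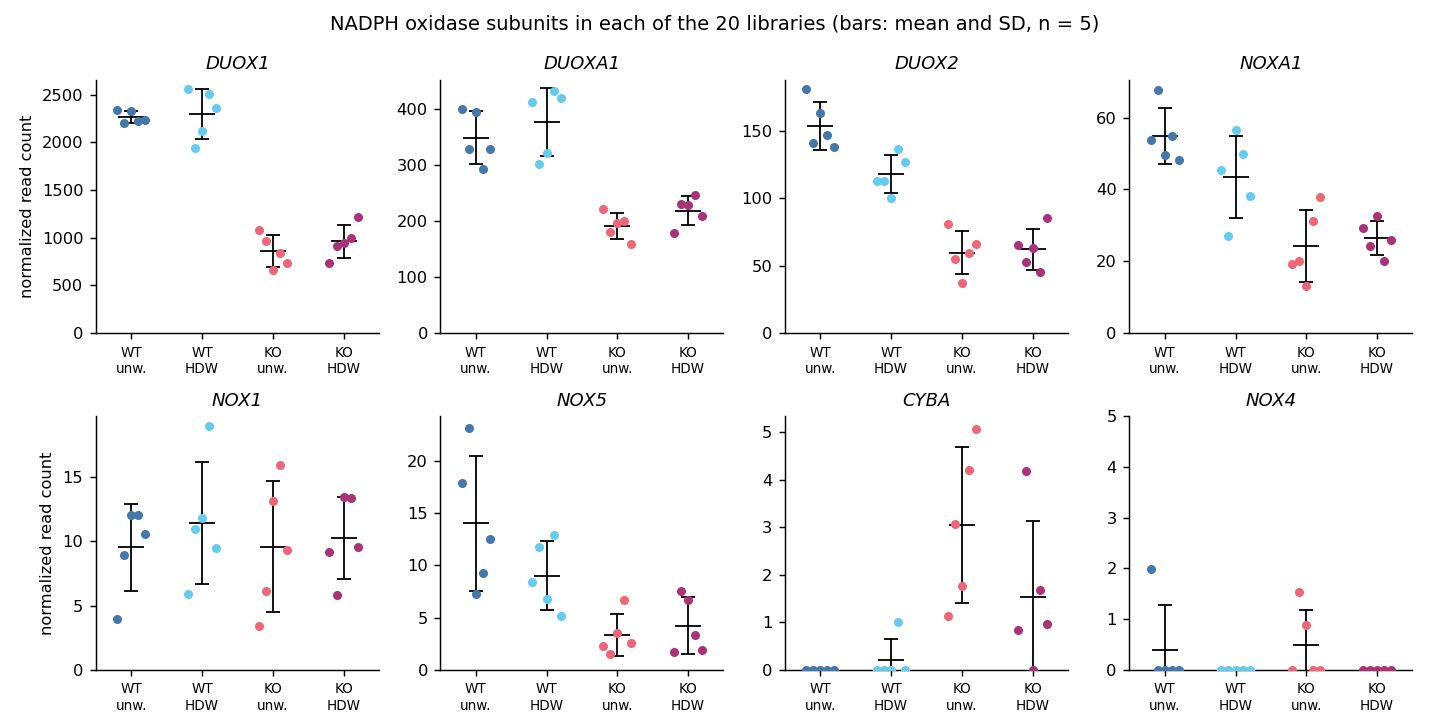
Normalised read count of each of the 8 genes in every library, with 1 point per library, a horizontal tick at the mean and bars of 1 SD (n = 5 per group); the vertical scale differs between panels and starts at 0. DUOX1 and DUOXA1 separate by genotype in both states without overlap, DUOX2 separates by genotype and is lower after HDW in WT cells, and the lower row shows genes with few or no reads.

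DUOX2, the second dual oxidase, was far below DUOX1 per length (DUOX1 over DUOX2 in FPKM was 16.3 ± 1.41 in unwounded WT cells, SD, n = 5) and was also lower without GCN2. Unwounded WT libraries held 181, 141, 163, 147 and 138 normalised read counts and unwounded GCN2KO libraries 80.7, 55.2, 36.8, 59.7 and 65.9. The values after HDW were 113, 113, 100.4, 137 and 127 in WT and 65.1, 52.7, 62.9, 45.1 and 85.2 in GCN2KO libraries. The groups did not overlap in either state, and the log2 fold changes were −1.36 (SE 0.16, adjusted p = 2.06e-06) unwounded and −0.90 (SE 0.15, adjusted p = 7.09e-05) after HDW. In raw reads DUOX2 rested on 27 to 158 counts per library, and 4.49% of its 50-base words also occur in DUOX1.

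NOXA1, the activator subunit of the NOX1 complex, was lower in GCN2KO cells on thin counts. Its normalised read counts were 53.7, 67.8, 49.5, 54.8 and 48.2 in unwounded WT libraries and 19.3, 19.9, 13.2, 31.1 and 38.0 in unwounded GCN2KO libraries, with no overlap. After HDW they were 45.5, 26.9, 56.5, 49.9 and 38.1 in WT and 29.2, 24.3, 32.7, 20.1 and 25.9 in GCN2KO libraries, where the lowest WT library fell inside the GCN2KO range. The log2 fold changes were −1.11 (SE 0.23, adjusted p = 5.46e-04) and −0.68 (SE 0.20, adjusted p = 0.00763). NOXA1 kept a median of at least 1 CPM in both WT groups, at 1.87 and 1.58 CPM, and fell short of it in both GCN2KO groups, at 0.693 and 0.899 CPM.

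Among the 5 of 8 genes that passed the filter on low counts, 4 passed the test for GCN2KO against WT in unwounded cells, all 4 lower, and 3 (DUOX1, DUOX2 and NOXA1) also met the threshold of a DE gene, an adjusted p of at most 0.05 together with at least a doubling or halving (1 on the log2 scale). Over all 15348 genes tested, 66.5% passed the adjusted p in either direction, 33.1% did so with a lower level, and 16.4% were DE genes. After HDW 4 of 5 again passed, all lower, and 1 (DUOX1) was a DE gene, where 71.7% of 15855 genes passed, 35.8% with a lower level, and 14.9% were DE genes. Passing the test alone was therefore common in these comparisons. The median log2 fold change of the 5 genes was −1.11 unwounded and −0.80 after HDW, and that of all genes tested 0.00 in both.

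The remaining members gave little signal. NOX1, the catalytic subunit that NOXA1 activates, had 2 to 19 counts per library and was at 9.53 ± 3.37 normalised read counts in unwounded WT, 11.4 ± 4.77 in WT HDW, 9.59 ± 5.09 in unwounded GCN2KO and 10.3 ± 3.19 in GCN2KO HDW cells. Its genotype difference was 0.01 on the log2 scale unwounded (95% interval −0.76 to 0.78, edgeR adjusted p = 0.984) and −0.17 after HDW (−0.84 to 0.50, adjusted p = 0.642), intervals wide enough to hold a difference like that of NOXA1 after HDW.

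NOX5, the calcium-gated oxidase, failed the filter in both genotype comparisons. It had 9, 13, 6, 10 and 13 raw counts in unwounded WT libraries, 10, 14, 8, 13 and 6 in WT HDW, 2, 1, 4, 8 and 3 in unwounded GCN2KO and 2, 9, 8, 2 and 2 in GCN2KO HDW libraries. In normalised read counts the unwounded groups did not overlap (14.03 ± 6.51 in WT and 3.31 ± 2.03 in GCN2KO), while those after HDW did (9.02 ± 3.29 and 4.23 ± 2.73). The exact two-sided permutation p was 0.00794 unwounded and 0.0476 after HDW, of 8 such tests run on NOX5 and CYBA, and with no filter the edgeR log2 fold changes were −1.85 (adjusted p = 1.20e-04) and −1.03 (adjusted p = 0.0463). In GENCODE 44, 72.1% of the exonic bases of NOX5 are also annotated to another gene of that name, which is not among the genes counted in these files.

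CYBA encodes p22phox, the partner without which NOX1, NOX2 and NOX4 are not stable, and it was almost unread. All 5 unwounded WT libraries had 0 counts and the 5 WT HDW libraries 1 count together. The GCN2KO libraries had 1, 2, 2, 5 and 6 counts unwounded and 1, 5, 0, 1 and 1 after HDW. Thus 16 counts stood against 0 in unwounded cells (exact permutation p = 0.00794) and 8 against 1 after HDW (p = 0.127). No fold is given, because both genotypes lie near the floor. No other annotated gene overlaps the exons of CYBA in GENCODE 44, but the annotation used for counting is not given in the sources used here, so a low level of CYBA cannot be told apart from an effect of how its reads were counted. NOX4 had 1 count in 1 unwounded WT library and in each of 2 unwounded GCN2KO libraries, and 0 counts after HDW in both genotypes.

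Few of these genes passed the test for HDW. In WT cells DUOX2 alone of the 6 members tested passed, with all 5 HDW libraries (100.4 to 137 normalised read counts) below all 5 unwounded libraries (138 to 181) and a log2 fold change of −0.38 (SE 0.11, 95% interval −0.60 to −0.15, adjusted p = 0.00779). No member was a DE gene in this comparison, in which 51.3% of 15348 genes passed and 4.17% were DE genes. DUOX1 differed by 0.02 (95% interval −0.12 to 0.15, adjusted p = 0.841) and DUOXA1 by 0.12 (−0.12 to 0.36, adjusted p = 0.390). The interval of DUOX1 leaves out a change beyond about 0.15 on the log2 scale. The other 3 differences were 0.14 for NOX1 (95% interval −0.55 to 0.83), −0.53 for NOX5 (−1.25 to 0.20) and −0.32 for NOXA1 (−0.71 to 0.07), with adjusted p-values of 0.743, 0.214 and 0.157, and their intervals allow sizeable changes. NOX4 and CYBA were not tested.

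In GCN2KO cells 0 of the 5 members tested passed by edgeR, and the unadjusted p-values were 0.0999 or above, against 22.7% of 15791 genes that passed and 0.671% that were DE genes. DUOX1 differed by 0.18 (95% interval −0.12 to 0.48, adjusted p = 0.366), DUOXA1 by 0.20 (−0.04 to 0.43, adjusted p = 0.210) and DUOX2 by 0.09 (−0.34 to 0.53, adjusted p = 0.768). The intervals were wider than in WT cells for DUOX1 and DUOX2. The HDW and genotype comparisons share their unwounded and HDW libraries, so they are not independent of each other.

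Whether wounding acted differently in the genotypes was tested by the interaction term over all 20 libraries, which 0 of 6 members passed by edgeR, 0 of them at an unadjusted p under 0.05, where 23.7% of 16536 genes passed and 3.31% were DE genes. The nearest was DUOX2, whose response was higher by 0.46 in GCN2KO than in WT cells on the log2 scale (edgeR, SE 0.23, 95% interval −0.0045 to 0.93, adjusted p = 0.145). When all libraries were thinned to the smallest one, this difference was 0.79 with an adjusted p of 0.0291. The DUOX2 fall with HDW is thus not shown to be specific to WT cells. DUOX1 (0.15, adjusted p = 0.539) and DUOXA1 (0.06, adjusted p = 0.822) had smaller differences.

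**Figure D3:**
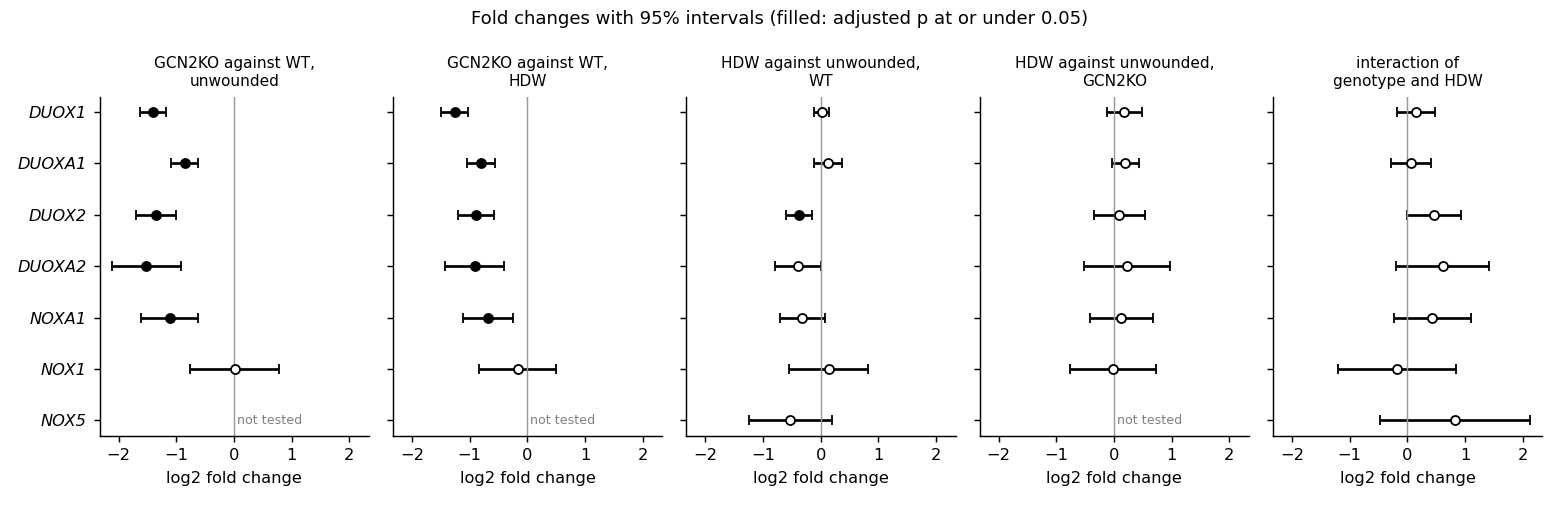
Log2 fold changes of 6 members and of DUOXA2 in the 4 comparisons and the interaction, as points with 95% intervals; filled points have an adjusted p of at most 0.05 (edgeR), and NOX5 was not tested where it failed the filter on low counts. The genotype panels lie left of 0 for DUOX1 (−1.40 and −1.26), DUOXA1, DUOX2, DUOXA2 and NOXA1, and in the wounding panels only DUOX2 in WT cells (−0.38) is filled.

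The other genes of the oxidase complexes were taken from a list of 10 (CYBB, NOX3, DUOXA2, NOXO1, NCF1, NCF4, RAC1, RAC2, RAC3 and CYBC1), of which 5 passed the filter on low counts. All 5 passed the genotype test in each state, 1 higher (RAC1) and 4 lower, with a median log2 fold change of −0.36 unwounded and −0.58 after HDW. Over all genes tested 66.5% passed unwounded and 71.7% after HDW, 33.1% and 35.8% with a lower level, and the median was 0.00 in both. DUOXA2, the maturation factor of DUOX2, moved with the members. Its unwounded values were 37.8, 25.0, 32.6, 29.7 and 34.7 normalised read counts in WT and 7.96, 21.5, 6.14, 15.1 and 7.60 in GCN2KO cells, which did not overlap, and the log2 fold change was −1.52 (SE 0.28, adjusted p = 1.72e-04). After HDW it was −0.92 (SE 0.24, adjusted p = 0.00351), and the groups overlapped. DUOXA2 rested on 6 to 40 counts per library and shares 27.7% of its exonic bases with DUOXA1.

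CYBB, the catalytic subunit of the phagocyte oxidase NOX2, had 0 to 12 counts per library and failed the filter. Of 5 leukocyte markers (PTPRC, CD14, CSF1R, ITGAM and CD3E), PTPRC and CD3E were at or under 3 counts in every library. The sum of the 5, nearly all CD14, was 56.4 to 64.4 CPM in unwounded WT, 29.5 to 35.1 in WT HDW, 21.9 to 43.5 in unwounded GCN2KO and 14.2 to 34.8 in GCN2KO HDW cells.

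The RAC GTPases, which switch on the NOX1 and NOX2 complexes, were all read. RAC1 was the highest by length at 49.97 ± 1.86 FPKM in unwounded WT cells and was higher in GCN2KO cells by small amounts on the log2 scale (0.16, adjusted p = 0.0339 unwounded, and 0.22, adjusted p = 6.44e-05 after HDW). RAC2, mainly known from blood cells, was at 32.7 ± 0.539 FPKM and was lower in GCN2KO cells by −0.36 and −0.58 (adjusted p = 5.70e-04 and 7.50e-08). RAC3 fell most, from 305 ± 23.0 to 157 ± 3.12 normalised read counts unwounded (−0.96, adjusted p = 4.52e-08) and from 263 ± 28.0 to 125 ± 20.9 after HDW (−1.06, adjusted p = 9.80e-07). CYBC1, a chaperone needed to make NOX2 and p22phox, was lower by −0.35 and −0.48 (adjusted p = 1.17e-04 and 1.30e-06).

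**Figure D4:**
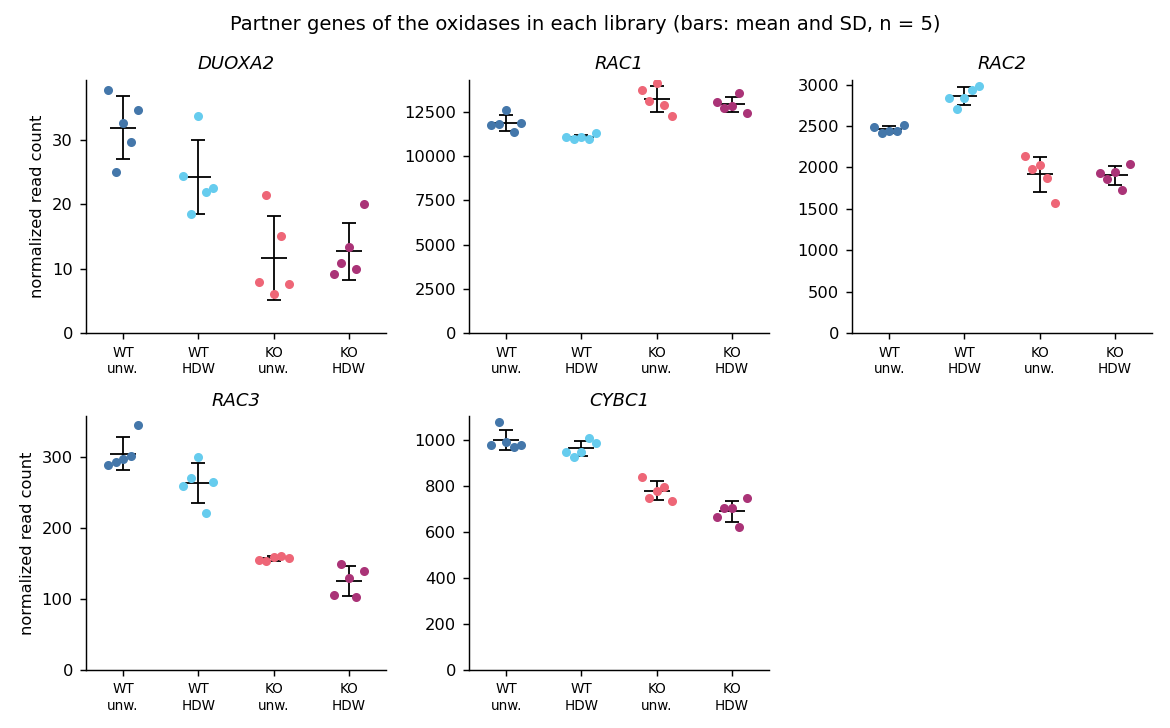
Normalised read count of 5 partner genes in every library, with 1 point per library, a tick at the mean and bars of 1 SD (n = 5 per group); scales differ between panels and start at 0. RAC3 (305 against 157 on average in unwounded cells), RAC2, CYBC1 and DUOXA2 are lower in GCN2KO cells, and RAC1 is higher.

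The other 4 genes of that list besides CYBB were near the floor. NOX3 had 0 counts in all 20 libraries, and NOXO1, the organizer of the NOX1 complex, at most 1, although 98.8% of its exonic bases overlap TBL3, so reads there may not have been counted for it. NCF1 had 0 to 8 counts, and 23.2% of its 50-base words also occur in its pseudogene copy NCF1C. NCF4 had 0 to 9 counts. Of the parts of the NOX1 system, RAC1 had by far the most reads. Among the other parts NOXA1 had the most, at up to 67 counts per library, and NOX1 had few. NOXO1 and CYBA were near 0 with the limits on their counting given above.

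Heme peroxidases use the hydrogen peroxide that dual oxidases make. Of LPO, MPO, EPX and PXDN, PXDN alone passed the filter on low counts, MPO had 0 counts in every library, LPO at most 5 and EPX at most 16. PXDN, the peroxidase that cross-links collagen IV, was at 2110 ± 71.3 normalised read counts in unwounded WT and 1380.0 ± 225 in unwounded GCN2KO cells (log2 fold change −0.61, SE 0.09, adjusted p = 2.97e-05). After HDW it was at 3923 ± 155 in WT and 1788 ± 205 in GCN2KO cells (−1.13, SE 0.07, adjusted p = 3.99e-09). HDW raised PXDN by 0.89 in WT and 0.39 in GCN2KO cells (adjusted p = 8.88e-11 and 0.0244), and the interaction was −0.52 (SE 0.12, adjusted p = 0.00283).

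The protein-coding genes around the 3 members on this stretch of chromosome 15 differed between genotypes in both directions. Of 18 protein-coding genes other than DUOX1 with their body within 500 kb of it, DUOX2, DUOXA1 and DUOXA2 included, 14 were tested in unwounded cells, of which 8 were lower and 1 higher in GCN2KO cells, and 15 after HDW, of which 8 were lower and 2 higher. Over all genes tested, 33.1% were lower unwounded and 35.8% after HDW. DUOX2, DUOXA1 and DUOXA2 are themselves among the lower genes counted here in both states. The other lower genes were SPG11, B2M, SORD, SHF and SQOR unwounded, and B2M, SORD, SHF, C15orf48 and SQOR after HDW. Without the DUOX and DUOXA genes the share of lower genes is nearer to that over all genes, so the counts are not read as a result about the region. SHF, whose start lies 71.2 kb beyond that of DUOX1, had the largest difference of the tested genes there at −2.17 unwounded (SE 0.23, adjusted p = 4.44e-07) and −2.65 after HDW (SE 0.30, adjusted p = 2.09e-06), from 64.1 ± 6.48 to 14.6 ± 6.26 and from 56.6 ± 10.02 to 9.71 ± 5.84 normalised read counts. SORD, sorbitol dehydrogenase, on the other side of the DUOX genes, was lower by −0.69 and −0.61 (adjusted p = 1.33e-07 and 6.16e-08). Farther out the signs were mixed, with BLOC1S6 higher (0.27 and 0.22, adjusted p = 0.0115 and 0.00239), SQOR lower (−0.50 and −0.70, adjusted p = 1.67e-04 and 7.64e-07) and GATM not past the threshold (−0.07 and −0.28, adjusted p = 0.755 and 0.130).

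**Figure D5:**
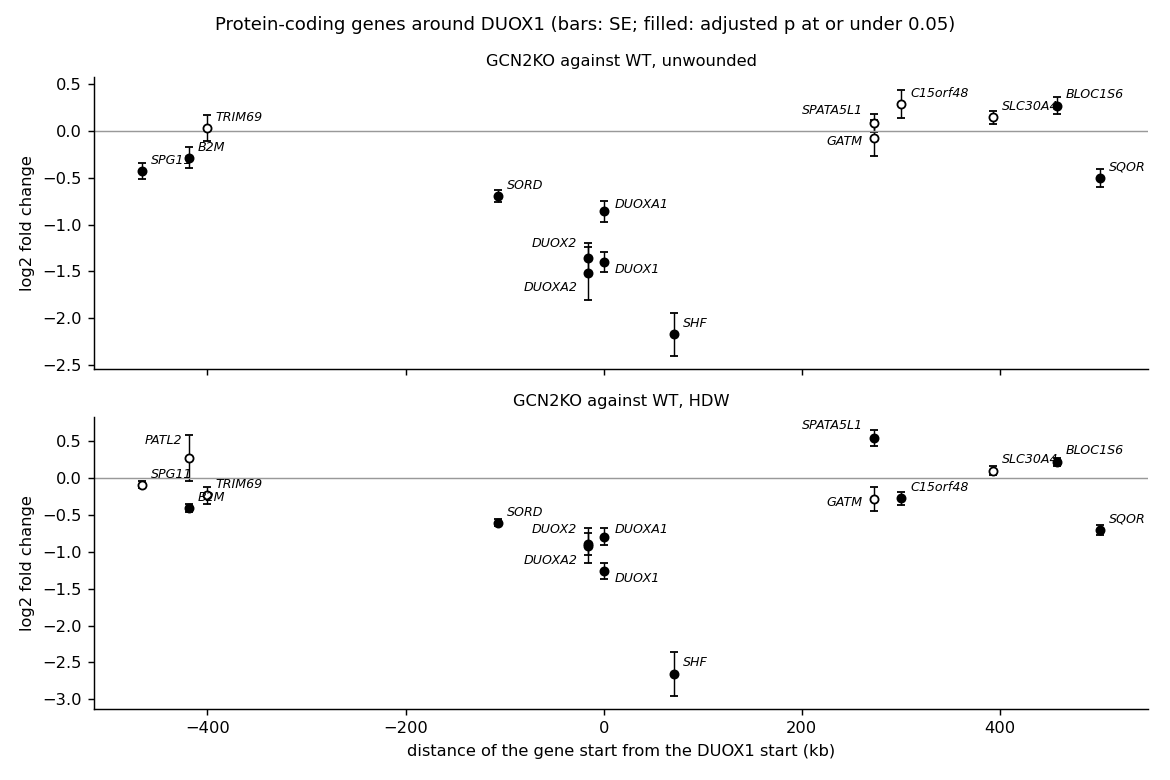
Log2 fold change of GCN2KO against WT for each tested protein-coding gene around DUOX1, unwounded (top) and after HDW (bottom), against the distance of its start from the DUOX1 start in kb; bars are SE and filled points have an adjusted p of at most 0.05. SORD, DUOX2, DUOXA2, DUOXA1, DUOX1 and SHF lie below 0 in both panels (SHF at −2.17 and −2.65), and genes farther away lie on both sides of 0.

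EIF2AK4, the edited gene, lies on the same chromosome, 5.09 Mb before DUOX1. The 446 genes tested on chromosome 15 beyond EIF2AK4 differed in unwounded cells by a median of −0.03 on the log2 scale, with 34.5% lower and 30.0% higher, and the 91 of them between EIF2AK4 and DUOX2 a median of −0.04, with 33.0% lower and 25.3% higher. On all other chromosomes the median was 0.00, with 33.2% lower and 33.6% higher. After HDW the medians were −0.01 beyond EIF2AK4, −0.09 between EIF2AK4 and DUOX2 and 0.00 on other chromosomes. On the other side, before EIF2AK4, the median was 0.10 over 64 genes in unwounded cells, with 26.6% lower and 37.5% higher, and 0.39 over 70 genes after HDW, with 27.1% lower and 51.4% higher, against 35.9% lower and 35.8% higher on other chromosomes. Whether the edit itself changed the DUOX region was not tested.

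DUOX1 and DUOXA1 also varied together among the WT libraries, while their relation among the GCN2KO libraries did not pass the test. Over the 10 WT libraries, the log2 normalised counts had Pearson's r = 0.833 (permutation p = 9.00e-04, adjusted over the 6 relations computed 0.00540) and Spearman's rho = 0.867 (permutation p = 0.00245, adjusted 0.0147). Without the 2 libraries farthest from the DUOX1 median r was 0.866, and within the 5 unwounded and the 5 HDW libraries it was 0.914 and 0.945. Over the 10 GCN2KO libraries r was 0.563 (permutation p = 0.0900, adjusted 0.187) and rho 0.564 (p = 0.0956, adjusted 0.286), and r was 0.744 without the 2 farthest. Within the 5 unwounded and the 5 HDW libraries of GCN2KO cells r was 0.492 and 0.478. Both genes share libraries, their promoter stretch and some exonic bases, and the part of each was not tested. For DUOX2 with DUOXA2, r was 0.457 over WT and 0.350 over GCN2KO libraries (permutation p = 0.183 and 0.323), with rho of 0.503 and 0.115 (permutation p = 0.143 and 0.760). The sign of this relation was not stable, with r of 0.610 within the unwounded and −0.591 within the HDW libraries of WT cells, and −0.387 in GCN2KO cells without the 2 libraries farthest from the DUOX2 median. DUOX1 and DUOX2 gave r of 0.275 and 0.559 (permutation p = 0.445 and 0.0935) and rho of 0.188 and 0.382 (permutation p = 0.608 and 0.282), and in GCN2KO cells r was −0.0854 without the 2 farthest libraries.

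Over all 20 libraries and 16536 genes, where the genotype gap dominates the likeness, the genes outside the family with the pattern most like DUOX1 by Pearson's r of log2 CPM were MAP3K4 (0.993), TCAF1 (0.992) and TTC31 (0.991). For DUOXA1 they were MARCKSL1 (0.961), NUSAP1 (0.957) and ADAMTSL4 (0.954), for DUOX2 PHETA1 (0.9753), ANKRD2 (0.963) and OSBPL5 (0.960), and for NOXA1 CYTH2 (0.8999), SLC25A29 (0.893) and MST1 (0.879). NOX5 was nearest to BBS1 (0.855), NALT1 (0.843) and RELB (0.839). NOX1 had no close neighbour, with RPL13AP20 at 0.688, NFATC2IP-AS1 at 0.653 and RNPS1P1 at 0.640. These values are a description over 4 groups of libraries and carry no test.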

How the data were processed

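The deposited files hold raw counts per gene, 1 file per library. According to the methods, the authors trimmed reads with Trimmomatic, used STAR to align paired reads of 150 bases to the GRCh38 genome, and tallied the uniquely placed exonic reads by featureCounts. The annotation release and strand setting are not given in the sources used here. Of 57500 gene identifiers, 56410 matched GENCODE 44 and 1090 did not. Replicates differed by at least 2.44 in chi-square per degree of freedom, so no library was counted as a duplicate.

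Counts were tested with edgeR 4.0.16 in R 4.3.3 (TMM, filterByExpr with a minimum of 10 and a total of 15 counts, quasi-likelihood F test, Benjamini-Hochberg over all genes tested), with the 10 libraries of each pair of groups or all 20 for the interaction, and the step was checked on simulated counts. Permutation tests used scipy 1.17.1 (exact for 5 against 5, 100000 resamples for correlations). FPKM used GENCODE 44 exonic lengths. Floors cover counting error only. The intervals of log2 fold changes come from the edgeR fits and also hold the estimated spread between libraries.

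The members and lists were chosen with earlier results of these data known. Named genes were the 8 members, EIF2AK4, the complex and peroxidase lists, protein-coding genes within 500 kb of DUOX1, and the 3 nearest patterns per member. The peroxidase list first named EPO, the symbol of erythropoietin, in place of EPX. EPX replaced it after the design was set. Some listed genes are not reported here and were left out of the list counts. The permutation tests of NOX5 and CYBA, the ratios, the relations within a genotype and the chromosome 15 medians were added after the data were seen. The tests were unpaired because nothing in the labels says that replicate numbers pair libraries, and same-numbered libraries did not deviate together. Alternatives were DESeq2 1.42.0, other scaling, filters, thinning, 1 fit over all libraries, a replicate block and leaving out each library.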

Additional observations from a re-analysis of the deposited data

Results flagged for a closer look

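In 3 of 56 groups of 5 libraries tested, 1 library stood apart from the other 4 by Dixon's criterion, and chance gives about 1 in 20. These were RAC3 in WT unwounded replicate 5 (345.1 normalised read counts against 288 to 301.0 in the others), CYBC1 in WT unwounded replicate 2 (1081 against 973 to 994) and EPX in GCN2KO unwounded replicate 4 (13.4 against 7.02 to 7.96). Groups with a median of 3 raw counts or fewer were not tested. That left out NOX4 and CYBA in every group and NOX5 in both GCN2KO groups. In the tested groups none of the 8 oxidase members had such a library.

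HDW changed PXDN differently in the 2 genotypes, by −0.52 on the log2 scale (GCN2KO minus WT, edgeR interaction, adjusted p = 0.00283).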

How the results depend on the processing

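Of 516 recomputed fold changes of single members, 494 kept their direction and side of the threshold, 1 passed where it had not (the DUOX2 interaction at 0.79, adjusted p = 0.0291, when thinned, which took the members past the interaction test from 0 to 1), and 21 changed sign, none of them past the threshold. With the added demand of a DE gene, members past the test were 1 of the 4 for GCN2KO against WT after HDW and 0 of the 1 for HDW in WT cells. For HDW in GCN2KO cells, genes past the adjusted p went from 3586 to 5576 with all 20 samples in 1 fit and 2121 with a replicate block, and to between 2070 (without GCN2KO HDW replicate 3) and 4517 with 1 library left out, 2137 without GCN2KO HDW replicate 2 and 2217 without GCN2KO unwounded replicate 5. The cause was not tested.

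Sign changes in the full set of libraries concerned NOX1, unwounded genotype (−0.027 by library size alone, −0.0051 with no filter) and HDW in GCN2KO cells (0.00016 by library size alone, 0.15 with a replicate block), and DUOX1 for HDW in WT cells (−0.022 by library size alone). Leaving out 1 library gave ranges across 0 for NOX1 (−0.13 to 0.20 for genotype unwounded, −0.34 to 0.061 after HDW, −0.090 to 0.31 for HDW in WT, −0.21 to 0.25 for HDW in GCN2KO, −0.37 to 0.098 for the interaction), DUOX1 for HDW in WT (−0.023 to 0.072), DUOX2 (−0.057 to 0.22) and NOXA1 (−0.061 to 0.36) for HDW in GCN2KO, and DUOXA1 for the interaction (−0.0093 to 0.13).

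Same-numbered libraries did not pair, with mean correlations of their deviations of 0.02, 0.03, 0.01 and −0.11 in the 4 comparisons, and the replicate block left the number of members past the test at 4, 4, 1, 0 and 0. Expressed members numbered 3 with a median of at least 2 CPM (DUOX1, DUOXA1 and DUOX2) and 3 with at least 1 FPKM (DUOX1, DUOXA1 and NOXA1). Depth limits NOX1, NOX4, NOX5 and CYBA, whose counts stayed at 19 or fewer per library.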
